A study of Homo sapiens with 6 samples.

Results

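MALAT1, NEAT1, KCNQ1OT1, PVT1, TUG1 and OIP5-AS1 are 6 well-studied long noncoding RNAs, and their levels were followed in A549 lung carcinoma cells with and without depletion of BCLAF1. The members were the rows of the deposited read table that carry 1 of these 6 gene symbols, 7 rows of 29122. The seventh is a second row named MALAT1 (ENSG00000279576.1), typed as protein-coding, which held 1 to 19 reads per library and failed the filter on low counts. The other 6 rows passed it, and "MALAT1" below means the row ENSG00000251562.6. A549 is an established epithelial line grown from a human lung carcinoma. The control group was 3 libraries (control 1 to 3) of A549 cells stably transduced with a lentivirus for a short hairpin RNA against firefly luciferase, a gene that the cells do not have. The BCLAF1-depleted group was 3 libraries (depleted 1 to 3) transduced in the same way with a hairpin against BCLAF1, a nuclear protein found in RNA-processing complexes. The sample names write "si", as for small interfering RNA, whereas the protocol describes hairpins, and the protocol was followed. The labels name no hairpin sequence, clone or time after transduction and do not say whether the 3 libraries of a group were grown apart; the tests therefore rest on differences among libraries that may be technical replicates.

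Long noncoding RNAs are transcripts that are longer than small RNAs and are not known to be translated. MALAT1 and NEAT1 are neighbours on chromosome 11 and stay in the nucleus, MALAT1 in speckles that hold splicing factors and NEAT1 as the scaffold of paraspeckles. KCNQ1OT1 is an antisense transcript inside KCNQ1 that silences genes of an imprinted cluster on the chromosome that makes it. PVT1 lies next to the MYC oncogene and is often gained together with it in tumours. TUG1 shares its start region with MORC2 and has been described with Polycomb proteins. OIP5-AS1, also called Cyrano, is a mainly cytoplasmic RNA that binds the microRNA miR-7 and the RNA-binding protein HuR.

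The ends of MALAT1 and of the longest NEAT1 transcript are shown first, because the libraries were made from RNA bound to oligo(dT) beads. Neither of these ends is made in the usual way. RNase P cuts each of these primary transcripts just before a tRNA-like RNA. The mature 3′ end folds into a triple helix between U-rich stretches and a genomic A-rich tract in place of a poly(A) tail. NEAT1 has 8 annotated transcripts, of which others may end elsewhere, and counts per gene do not tell them apart. The last 110 bases before the cut are given as DNA on the plus strand of GRCh38, with the U-rich stretches and the last 11 bases in capitals. The tRNA-like RNA that follows directly is given in lower case.
MALAT1 3′ end, chr11:65506007-65506116: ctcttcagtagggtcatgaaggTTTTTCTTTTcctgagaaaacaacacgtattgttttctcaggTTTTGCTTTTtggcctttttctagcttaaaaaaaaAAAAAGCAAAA
NEAT1 3′ end, chr11:65445431-65445540: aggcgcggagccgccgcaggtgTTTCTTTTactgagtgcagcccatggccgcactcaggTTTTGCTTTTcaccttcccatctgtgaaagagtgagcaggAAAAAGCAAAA
MALAT1 tRNA-like RNA, chr11:65506117-65506173: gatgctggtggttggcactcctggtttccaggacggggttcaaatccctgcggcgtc
NEAT1 tRNA-like RNA, chr11:65445541-65445598: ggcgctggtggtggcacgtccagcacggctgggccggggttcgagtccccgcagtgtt
Both printed 3′ ends share the same last 11 bases. Oligo(dT) beads can hold RNAs with such ends by genomic A runs. The longest A run in the longest annotated transcript was 13 bases in MALAT1 and 22 in NEAT1. The corresponding values were 29 in KCNQ1OT1 and in OIP5-AS1, 18 in TUG1 and 6 in PVT1. The share of each RNA that the beads caught was not measured, so levels of different RNAs are compared only roughly. For the same reason, a change of an RNA between the groups cannot be told apart from a change in its capture, which was not tested.

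The miR-7 site of OIP5-AS1 is shown because it is the best-known functional element of that RNA. The microRNA is the RefSeq entry, with its seed (bases 2 to 8) in capitals, and the site is given as DNA on the plus strand with the seed match in capitals.
hsa-miR-7-5p: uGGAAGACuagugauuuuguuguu
OIP5-AS1 site, chr15:41300572-41300599: agaacaacaaaatcaccaatGTCTTCCa
In order along the 2 strands, 23 of the 24 microRNA bases pair with this site. Mature microRNAs were not measured in these libraries.

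The 6 libraries held 33409158 to 43928927 counts. BCLAF1, the targeted gene, stood at 199 to 211.1 CPM, that is, counts per scaled library total, in the controls and at 35.72 to 53.1 CPM in the depleted libraries (log2 fold change −2.26 ± 0.16 SE). Depleted 1, 2 and 3 held 39.02, 35.72 and 53.1 CPM of BCLAF1, so depleted 3 kept the most. Of A549 and lung epithelial markers, KRT7, KRT8 and KRT18 were high in every library, whereas KRT19, SFTPB, SFTPC and NKX2-1 stayed under 1 CPM in every library. The whole list of 13 summed to 35100 to 36700 CPM in controls and 37100 to 44300 CPM in depleted libraries. Markers of other cell types (11 genes, 6 of them under 1 CPM in every library and none at 0 in every library) summed to 24.3 to 26.7 and 17.2 to 18.6 CPM. The blood-cell marker PTPRC reached at most 0.117 CPM, while COL1A1 was the highest of this list at 8.87 to 18.2 CPM. Of the 6 that entered the test described below, 1 was called higher, CDH5 (log2 fold change 1.20), and 2 lower, COL1A1 (−0.84) and PECAM1 (−0.89). The genes named from both marker lists were picked after their values were seen. Depleted 3 stood apart: 19.3% of its counts came from mitochondrially encoded genes, against 10.5% to 11.4% in the other 5 libraries, so values without it are given for each member. Counts of all depleted libraries also agreed less among themselves (Pearson r of log2 CPM across genes 0.9802 to 0.9845) than those of controls (0.9938 to 0.9951).

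After BCLAF1 depletion, MALAT1 and PVT1 rose, TUG1 fell, and NEAT1, KCNQ1OT1 and OIP5-AS1 did not pass the test. MALAT1 rose 2.43-fold and PVT1 2.25-fold, and TUG1 was 1.45-fold lower. The test was edgeR's quasi-likelihood test over 15907 genes, called at a Benjamini-Hochberg adjusted p under 0.05. It called 3 of the 6 RNAs, 2 higher and 1 lower. The background was high: 35.8% of all tested genes were called, 17.8% higher and 18% lower, and 27% of the 2230 tested genes of long noncoding types. A count of 3 among 6 is therefore not a result about these RNAs as a set. Of all tested genes 51.9% had groups that did not overlap, and of those of long noncoding types 40.5%, against 5 of these 6 RNAs.

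**Figure D1:**
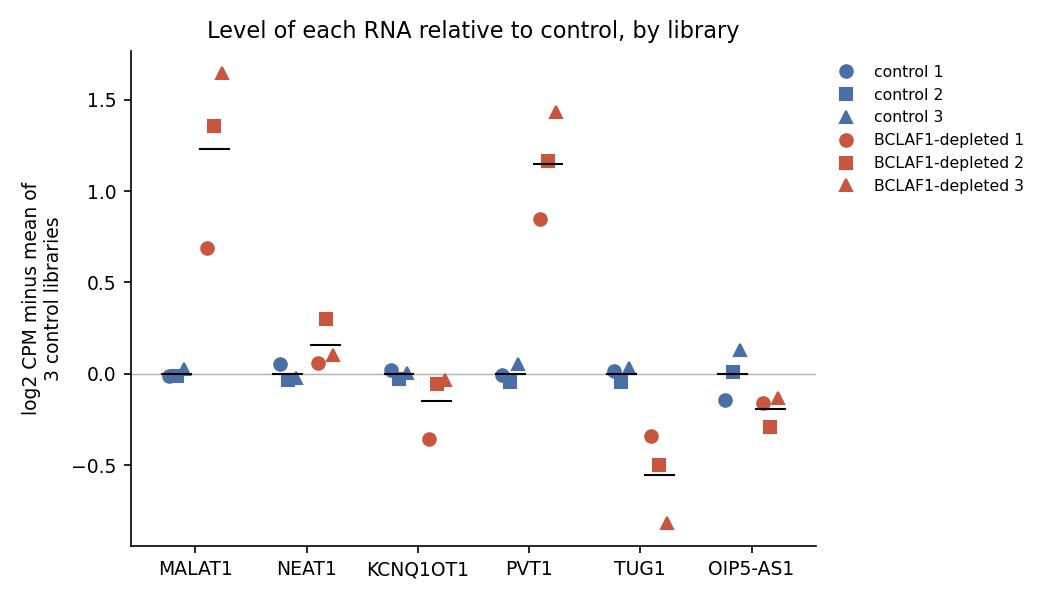
Log2 CPM of each RNA in each library, minus the mean of the 3 control libraries; blue symbols are controls, red symbols are BCLAF1-depleted libraries, and bars are group means. MALAT1 and PVT1 lie above all controls in the 3 depleted libraries and TUG1 below all controls, with depleted 1 the nearest to control and depleted 3 the farthest for each of these 3 RNAs. Of the depleted libraries, BCLAF1 itself was lowest in depleted 2 and highest in depleted 3.

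MALAT1 was the most abundant long noncoding RNA in both groups. It lies at chr11:65497688-65506516 on the plus strand (GRCh38, GENCODE 29), a gene whose longest transcript is 1 exon of 8708 bases. Controls 1, 2 and 3 held 386411, 387517 and 431598 MALAT1 counts, or 8744, 8738 and 8973 CPM. The depleted libraries held 498033, 770740 and 894163 counts, or 14197, 22603 and 27557 CPM. The controls were within a narrow band and every depleted library lay above it, but the depleted libraries were far apart from each other. The means were 8818 ± 134 and 21452 ± 6754 CPM (SD, n = 3 each), a log2 fold change of 1.28 ± 0.26 (SE, edgeR adjusted p 0.0050). MALAT1 alone took 0.940%, 0.945% and 0.982% of all counts in the controls and 1.49%, 2.12% and 2.19% in the depleted libraries. Long noncoding types together took 1.95% to 2.04% and 2.46% to 3.19% of counts. Without MALAT1 those shares were 1.01% to 1.05% and 0.908% to 1.07%, which overlap. By length-normalised level (FPKM, fragments per length and library size), MALAT1 was 45th of all genes in controls and 28th in depleted libraries.

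The rise of MALAT1 passed the threshold under each of 20 alternative settings, with log2 fold changes from 0.93 to 1.59 and adjusted p up to 0.0391. Without depleted 3 it was 1.06 (edgeR adjusted p 0.00842), and without the mitochondrially encoded genes it was 1.28. MALAT1 is a nuclear RNA, and in libraries made from whole cells a change in RNA per cell cannot be told apart from a change in the number of cells that hold it. The 3 genes with the most similar course over the 6 libraries, out of 10172 genes whose mean reached 5 CPM, were RPL38, SPR and MAP1B. RPL38 encodes a protein of the large ribosomal subunit, SPR sepiapterin reductase and MAP1B a microtubule-associated protein. Their log2 CPM, centred on the controls, differed from that of MALAT1 by a root mean square of 0.0522, 0.0545 and 0.0608. An antisense transcript annotated inside MALAT1, AP000769.7, held 0 to 3 counts per library.

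NEAT1, 52147 bases away from MALAT1 on the same strand, did not pass the test. It lies at chr11:65422774-65445540, and its longest transcript is 1 exon of 22743 bases. NEAT1 counts were 35113, 33087 and 36227 in the controls and 27988, 32060 and 26676 in the depleted libraries. Scaled to CPM these were 794.6, 746.0 and 753.1 against 797.8, 940.2 and 822.1. The groups did not overlap in CPM, but depleted 1 was only just above control 1. The log2 fold change was 0.16 ± 0.14 (SE, edgeR adjusted p 0.402) and 0.18 (adjusted p 0.275) without depleted 3. The direction turned with the scaling. It was −0.07 with library totals alone and −0.13 on log2(FPKM + 1), 2 scalings under which the median of all genes was −0.206 and −0.142, against 0.0196 here. With a trend on gene length and GC content removed, it was 0.41 (adjusted p 0.0526). NEAT1 was called under none of the 20 settings.

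**Figure D2:**
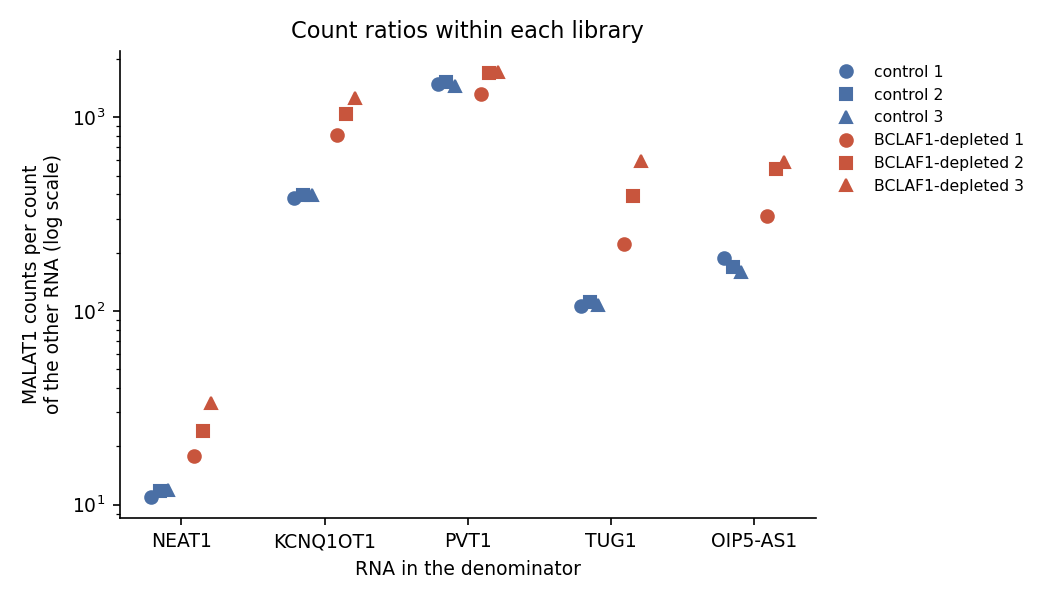
MALAT1 counts per count of each other RNA within each library, on a log axis; blue symbols are controls and red symbols are BCLAF1-depleted libraries. Ratios to NEAT1, KCNQ1OT1, TUG1 and OIP5-AS1 are higher in all 3 depleted libraries than in any control, and ratios to PVT1 overlap.

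Ratios of counts within a library do not depend on library scaling and were used to compare the members directly. Per count of NEAT1, the controls held 11.01, 11.71 and 11.91 counts of MALAT1, and the depleted libraries held 17.80, 24.04 and 33.52. The group means differed 2.11-fold (log2 difference 1.07; exact two-sided permutation p 0.1, 0.125 after adjustment over 5 ratios). With 3 libraries against 3 this design cannot give a p under 0.1. The corresponding mean ratio rose 2.6-fold against KCNQ1OT1, 2.68-fold against OIP5-AS1 and 3.44-fold against TUG1, each with the same exact permutation p. In these 4 ratios the lowest depleted library was above the highest control. The ratio of MALAT1 to PVT1 overlapped between the groups. Per count of PVT1 there were 1481, 1520 and 1453 counts of MALAT1 in the controls and 1325, 1690 and 1713 in the depleted libraries, a 1.05-fold difference (exact permutation p 0.5). Over the libraries left out in turn, the log2 difference of this ratio ran from 0.01 to 0.20, within a spread (SD) of 0.209 among depleted libraries.

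PVT1 rose from a low level. It lies at chr8:127794533-128101253 on the plus strand, with 25 annotated transcripts whose exons cover 5493 bases. PVT1 counts were 261, 255 and 297 in the controls and 376, 456 and 522 in the depleted libraries. In CPM these were 5.91, 5.75 and 6.17 against 10.7, 13.4 and 16.1, so the lowest depleted library was well above every control. The means were 5.94 ± 0.21 and 13.4 ± 2.7 CPM (SD, n = 3 each), a log2 fold change of 1.17 ± 0.16 (SE, edgeR adjusted p 0.000947). Without depleted 3 the value was 1.02 (adjusted p 0.00299), and PVT1 was called under each of the 20 settings, from 0.70 to 1.29. A separate row, PVT1_1, a conserved element at the 5′ end of the gene, held 29 to 45 counts in controls and 31 to 44 in depleted libraries and did not pass (0.43 ± 0.28, adjusted p 0.248). The genes most similar to PVT1 in course were ADM, which encodes the vasodilator peptide adrenomedullin, GPX2, a glutathione peroxidase, and PTRHD1, at root mean square differences of 0.0624, 0.0627 and 0.0730.

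MYC, the closest tested coding gene to PVT1 at 53.1 kb, was measured at 142 ± 6 CPM in controls and 155 ± 18 CPM in depleted libraries (SD, n = 3 each). Its log2 fold change was 0.13 ± 0.13 (SE, edgeR adjusted p 0.463), the groups overlapped, and the sign turned with library totals alone, on the FPKM scales and with the length and GC trend removed. MYC binds DNA with MAX, and the MXD, MNT and MGA proteins compete for MAX. Of 11 tested genes of this network none rose and 1 fell, MXI1 (−0.65 ± 0.18, edgeR adjusted p 0.0183), a MAX partner that opposes MYC. MXI1 lost its call without any 1 of the controls. The median log2 fold change of the 11 genes was 0.0808, against 0.0196 over all tested genes, of which 17.8% rose and 18% fell.

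TUG1 fell in all 3 depleted libraries. It lies at chr22:30969245-30979395 on the plus strand, and its longest transcript has 3 exons and 7469 bases. TUG1 counts were 3623, 3487 and 3998 in the controls and 2250, 1964 and 1496 in the depleted libraries. In CPM these were 82.0, 78.6 and 83.1 against 64.1, 57.6 and 46.1, with no overlap and with depleted 3 the lowest. The means were 81.2 ± 2.3 and 55.9 ± 9.1 CPM (SD, n = 3 each), a log2 fold change of −0.54 ± 0.14 (SE, edgeR adjusted p 0.0143). Without depleted 3 it was −0.42 (adjusted p 0.0218). The call held under 14 of the 20 settings. Leaving out control 1, 2 or 3 gave −0.54, −0.57 and −0.53 with adjusted p of 0.0594, 0.0503 and 0.0575. Long genes tended to lie lower in the depleted libraries: the 3155 longest tested genes, with exons covering at least 7812 bases, had a median log2 fold change of −0.188, and all members but PVT1 belong to it. With the length and GC trend removed, TUG1 was at −0.28 (adjusted p 0.11). Genes of similar course were RELL1, CENPN and TSC22D3 (root mean square differences 0.0283, 0.0403 and 0.0412). CENPN is a centromere protein and TSC22D3 the glucocorticoid-induced leucine zipper.

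MORC2, a gene for a chromatin-silencing ATPase that starts 946 bases from TUG1 on the opposite strand, did not pass. MORC2 stood at 55.7 ± 0.7 CPM in controls and 61.6 ± 4.7 CPM in depleted libraries (log2 fold change 0.14 ± 0.11 SE, edgeR adjusted p 0.337). Scaled by library totals alone or on the FPKM scales, MORC2 was below 0. Over all tested genes, 17.8% rose and 18% fell. Of 12 tested genes for the Polycomb repressive complex and for G9a and its partner, none rose and 4 fell, with a median of −0.244. They were EHMT1 (−0.55 ± 0.12), the G9a partner, the histone H3 lysine methyltransferase EZH2 (−0.43 ± 0.13), its partner SUZ12 (−0.37 ± 0.13) and the accessory protein JARID2 (−0.37 ± 0.12), named after its value was seen. Without depleted 3, 2 of the 12 were lower, as EZH2 (adjusted p 0.0521) and SUZ12 (adjusted p 0.0743) lost their calls. With the length and GC trend removed, without depleted 2 or without any 1 of the controls 1 was lower, and 6 were lower and 1 higher without depleted 1. The number lower among all genes was 2870 in the reported fit and 2479 without depleted 3. It was 2562 with the trend removed, 2063 without depleted 2, 1549 to 1669 without a control and 4195 without depleted 1.

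KCNQ1OT1 did not pass the test either. It is annotated as 1 unspliced transcript of 91667 bases at chr11:2608328-2699994 on the minus strand, inside KCNQ1. KCNQ1OT1 counts were 1011, 980 and 1087 in the controls and 616, 740 and 713 in the depleted libraries, or 22.9, 22.1 and 22.6 against 17.6, 21.7 and 22.0 CPM. Depleted 1 was the low one, while depleted 2 and 3 were just under the lowest control. The log2 fold change was −0.14 ± 0.13 (SE, edgeR adjusted p 0.397), −0.20 without depleted 3, and between −0.38 and −0.06 under the 20 settings, none of which called it. KCNQ1 itself held 0 to 9 counts per library and was not tested.

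Of the imprinted KCNQ1 domain and its neighbours H19 and IGF2, 11 genes were tested. Of these 4 rose and 2 fell, against 17.8% and 18% of all tested genes, with a median of −0.0959. PHLDA2, a maternally expressed gene of the cluster that limits placental growth, rose from 10.4 ± 0.9 to 25.5 ± 5.1 CPM (log2 fold change 1.29 ± 0.16 SE, edgeR adjusted p 0.000433). The maternally expressed noncoding RNA H19 fell from 1298 ± 20 to 599 ± 133 CPM (−1.12 ± 0.18, adjusted p 0.0021). OSBPL5, a lipid-transfer protein gene, fell from 17.04 ± 0.02 to 9.22 ± 0.53 CPM (−0.89 ± 0.12, adjusted p 0.000746). Each of these 3 kept its call without depleted 3, at 1.36, −1.25 and −0.94. The other 3 called genes, TSSC4 (0.80), CD81 (0.56) and IGF2 (0.75), rose and were named after their values were seen. On log2(FPKM + 1), 1 gene of the domain was higher and 4 were lower, and without control 3 it was 2 and 2. The counts over all genes were 1131 and 4453 on that scale and 1519 and 1669 without control 3. They were 2827 and 2870 in the reported fit. Counts per gene do not tell the parental alleles apart.

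OIP5-AS1 had the widest spread among controls of the 6 RNAs, relative to its mean. It lies at chr15:41283990-41309737 on the plus strand, and its longest transcript has 4 exons and 8829 bases. OIP5-AS1 counts were 2060, 2302 and 2708 in the controls and 1615, 1434 and 1525 in the depleted libraries, or 46.6, 51.9 and 56.3 against 46.0, 42.1 and 47.0 CPM. Control 1 lay among the depleted libraries, so the groups overlapped. The log2 fold change was −0.20 ± 0.12 (SE, edgeR adjusted p 0.216) and −0.23 without depleted 3. It turned to 0.10 with the length and GC trend removed. None of the 20 settings called it. OIP5, a centromere assembly factor whose gene overlaps the end of OIP5-AS1 on the opposite strand, stood at 5.49 ± 0.52 and 3.72 ± 1.08 CPM (−0.56 ± 0.22, adjusted p 0.0679). OIP5 did not pass here but was called lower under 8 of the 20 settings. Among them were the replicate block (edgeR adjusted p 0.0245) and the length and GC trend removed (−0.84, edgeR adjusted p 0.0174). The sources used here do not give the strand setting of the authors' counting, so reads of the overlap cannot be assigned with certainty.

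Of 10 tested genes that act with OIP5-AS1, miR-7 or HuR, none was higher and 2 were lower, with a median of −0.335. Over all tested genes 17.8% were higher and 18% lower. ELAVL1 encodes HuR, and ZSWIM8 the adaptor of the ubiquitin ligase that destroys miR-7 when OIP5-AS1 is bound. ZSWIM8 fell from 21.9 ± 0.9 to 17.2 ± 1.9 CPM (−0.35 ± 0.12, edgeR adjusted p 0.0492) and AGO2, an effector of microRNAs, from 50.2 ± 1.5 to 39.2 ± 5.0 CPM (−0.36 ± 0.12, adjusted p 0.0447). Both lie close to the threshold. AGO2 lost its call without depleted 3 (−0.30, adjusted p 0.0877), which left 1 gene lower. No gene was lower without depleted 2, without any 1 of the controls or with upper-quartile scaling, 5 were with library totals alone, and 8 were lower and 1 higher without depleted 1. Of the 15907 to 16277 genes tested, 2870 were lower in the reported fit, 2063 without depleted 2 and 1549 to 1669 without a control. With upper-quartile scaling 2587 were lower, and 3662 were with library totals alone. Without depleted 1, 4195 were lower and 3741 higher. The median moved to −0.136 with the length and GC trend removed.

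**Figure D3:**
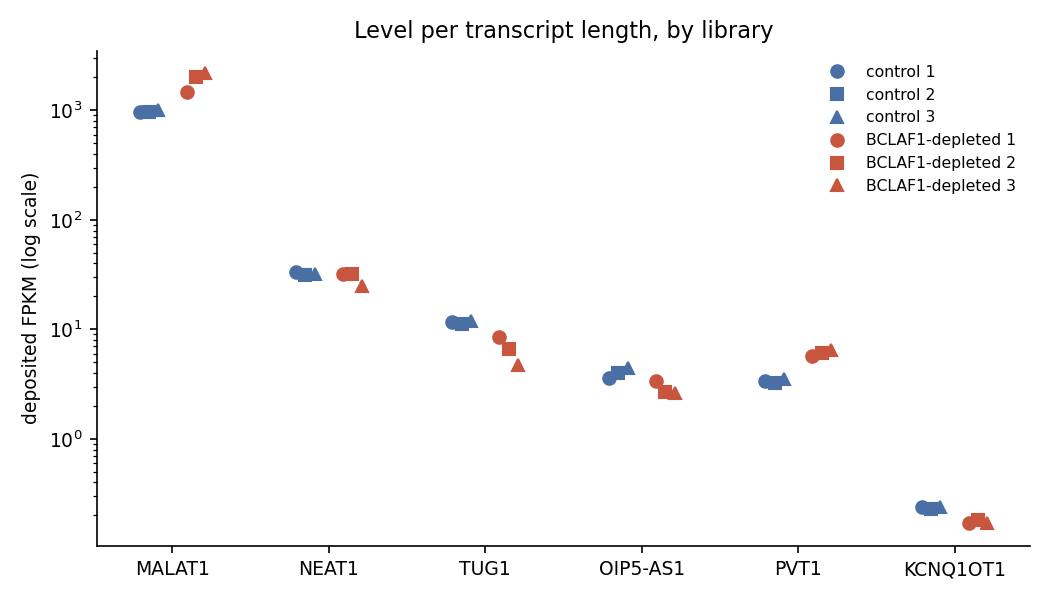
Deposited FPKM of each RNA in each library on a log axis, in the order of the control means; blue symbols are controls and red symbols are BCLAF1-depleted libraries. MALAT1 has a mean of 978 in controls and KCNQ1OT1 one of 0.237, and the depleted libraries of TUG1 and PVT1 overlap.

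On the length-normalised FPKM scale the control levels ran in the order MALAT1 (978 ± 21), NEAT1 (32.5 ± 1.1), TUG1 (11.6 ± 0.4), OIP5-AS1 (4.03 ± 0.40), PVT1 (3.38 ± 0.14) and KCNQ1OT1 (0.237 ± 0.006; SD, n = 3 each). No neighbours in this order overlapped in the controls, although OIP5-AS1 in control 1 (3.63) was close to PVT1 in control 3 (3.53). In the depleted libraries MALAT1 (1895 ± 373) and NEAT1 (29.7 ± 4.1) came first. TUG1 (6.62 ± 1.92) and PVT1 (6.13 ± 0.42) followed and did not differ beyond their spread: TUG1 was at 8.54, 6.62 and 4.69 FPKM and PVT1 at 5.71, 6.14 and 6.54. OIP5-AS1 (2.89 ± 0.42) and KCNQ1OT1 (0.173 ± 0.006) came last. On this scale PVT1 thus moved past OIP5-AS1, with no overlap between them in the depleted libraries. The order rests on the length behind each deposited FPKM, which the sources used here do not give. For PVT1 the exons cover 5493 bases and the longest transcript has 1699. In CPM, PVT1 stayed below OIP5-AS1 in the depleted libraries (means 13.4 and 45.0). Among the 2230 tested genes of long noncoding types, ranked by mean CPM from the top, MALAT1 was first in both groups and NEAT1 went from the third place to the second. TUG1 went from place 8 to 21, OIP5-AS1 from 19 to 31, KCNQ1OT1 from 49 to 79 and PVT1 from 229 to 127.

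**Figure D4:**
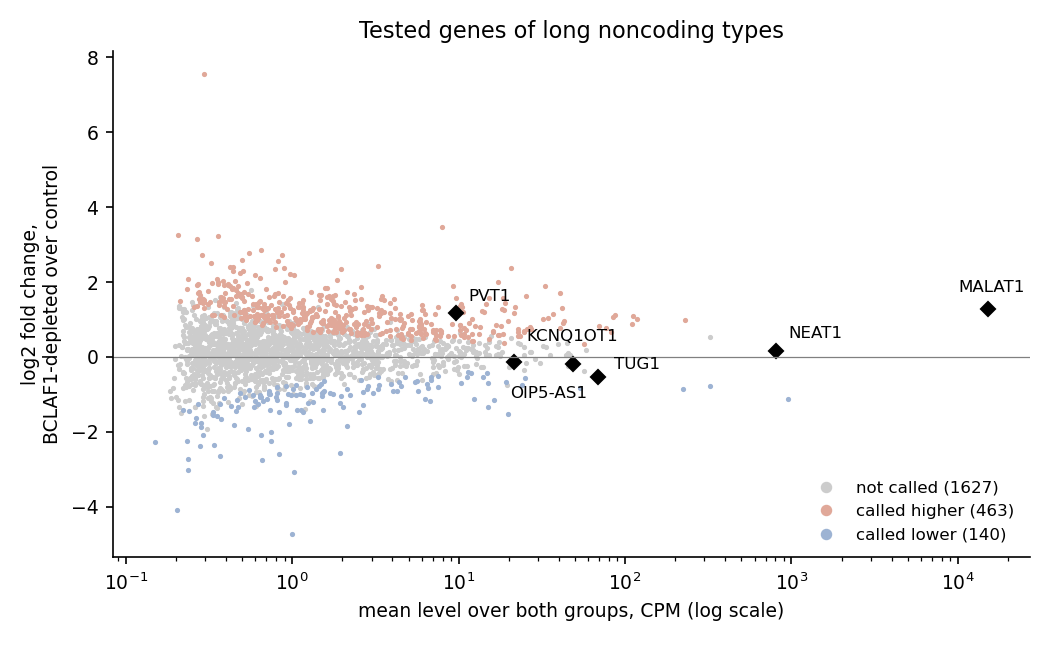
Log2 fold change, BCLAF1-depleted over control, against mean CPM on a log axis for the 2230 tested genes of long noncoding types; 463 were called higher (light red), 140 lower (light blue) and 1627 were not called (grey), and black diamonds are the 6 RNAs. MALAT1 is the most abundant gene of the plot, and PVT1 lies among the called higher genes at a lower level.

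The 6 RNAs were then set beside the other genes of their class. Of the 2230 tested long noncoding genes, 20.8% were called higher and 6.28% lower, and the median log2 fold change was 0.258. The corresponding values for 13387 protein-coding genes were 17.1%, 20.3% and −0.0201. Of 135 long noncoding genes over 10 CPM in controls, the range that holds MALAT1, NEAT1, TUG1, OIP5-AS1 and KCNQ1OT1, 36.3% were higher and 14.1% lower. The excess of higher over lower calls among long noncoding genes depended on the scaling. There were 251 higher and 204 lower with library totals alone, 265 and 323 on log2(FPKM + 1), and 344 and 214 with the length and GC trend removed, in place of 463 and 140. Over all genes the split was 2827 and 2870 here, 1283 and 3662 with library totals alone and 1131 and 4453 on log2(FPKM + 1). Under those 3 settings MALAT1 and PVT1 were still called higher.

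Of 42 other well-studied long noncoding RNAs that were tested, 21 rose and 5 fell, against 17.8% and 18% of all tested genes. The median of the 42 was 0.636, and without depleted 3 the counts were 19 and 6. On log2(FPKM + 1) there were 14 higher and 8 lower, and 8 and 5 with no filter. The counts over all genes were 1131 and 4453 on that scale, and 573 and 2057 with no filter. The 21 include RMRP, RPPH1 and RN7SK, made by RNA polymerase III. They also include CASC19 and PCAT1, at only 0.0729 and 0.139 CPM in controls. These genes were named after their values were seen. BCYRN1, a brain cytoplasmic RNA with many Alu-related copies in the genome, rose from 18.8 ± 6.5 to 62.03 ± 39.53 CPM (log2 fold change 1.72 ± 0.40 SE, edgeR adjusted p 0.0098), and its reads may be shared with those copies. Without depleted 3 its log2 fold change was 1.08 (adjusted p 0.0256). LUCAT1, a stress-induced RNA, rose from 10.3 ± 1.1 to 27.9 ± 11.3 CPM (1.44 ± 0.27). MIR31HG, the host gene of miR-31, fell from 1.97 ± 0.22 to 0.596 ± 0.280 CPM (−1.72 ± 0.31). The remaining names in this paragraph were chosen after their values were seen. Of the list's hosts of small nucleolar RNAs, SNHG16 (1.12), SNHG8 (1.02), ZFAS1 (1.00), SNHG5 (1.00), SNHG12 (0.96), EPB41L4A-AS1 (0.82) and GAS5 (0.75) rose, while SNHG1 (0.13, edgeR adjusted p 0.412) and DANCR (0.26, adjusted p 0.118) did not pass. LINC00657, now NORAD, an abundant cytoplasmic RNA that binds Pumilio proteins, fell from 290 ± 11 to 159 ± 35 CPM (−0.87 ± 0.16).

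MALAT1 and NEAT1 sit in bodies built with proteins whose genes were also measured. Of 20 tested genes for nuclear speckle proteins, 3 rose and 2 fell (17.8% and 18% of all tested genes), with a median of 0.0968. RBM25 (1.03 ± 0.29 SE, edgeR adjusted p 0.022), SRSF11 (0.97 ± 0.28, adjusted p 0.0218) and SRRM1 (0.63 ± 0.19, adjusted p 0.0252), which act in splicing, were higher, and SRSF6 (−0.54) and PRPF4B (−0.35), named after their values were seen, were lower. The depleted libraries were uneven here: RBM25 stood at 793 ± 382 CPM against 389 ± 50 in controls, and without depleted 3 RBM25 and SRSF11 were at 0.58 (adjusted p 0.0476) and 0.58 (adjusted p 0.0531). Of 23 tested genes for paraspeckle proteins, 2 rose and 2 fell, with a median of −0.0641. They were TAF15 (0.74 ± 0.24) and the chromatin remodeller SMARCA4 (0.73 ± 0.17), and HNRNPUL1 (−0.55 ± 0.14) and RBM12 (−0.48 ± 0.14), the last named after its value was seen. These calls moved with single libraries, as did those over all genes. Leaving out any 1 control gave 1 paraspeckle gene higher and none lower, and no speckle gene in either direction. The share of all genes called was then 18.1% to 19.7%, against 35.8% in the reported fit. Leaving out depleted 1 gave 7 and 7 paraspeckle genes and 5 and 4 speckle genes, higher and lower. Of all 16277 genes tested without it, 3741 were higher and 4195 lower. Without depleted 2 there were 1 and 1 in each list, and 1987 and 2063 of all 16211 genes. TAF15 lost its call without depleted 3 (0.44, adjusted p 0.0878). On log2(FPKM + 1) none of these speckle or paraspeckle genes was higher, and 6 and 7 were lower. On that scale 1131 of all 15906 genes were higher and 4453 lower, so lower calls were also more frequent over all genes.

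Genes linked to the 3′ ends shown above were those of RNase P subunits, the tRNA 3′ endonuclease ELAC2 and METTL16, which binds the MALAT1 triple helix. Of 11 tested, 5 rose and none fell (17.8% and 18% of all tested genes), with a median of 0.341. Of the 5, ELAC2 (0.41), named after its value was seen, is not a subunit of RNase P. RPP40 rose from 3.29 ± 0.04 to 6.21 ± 0.70 CPM (log2 fold change 0.91 ± 0.15 SE, edgeR adjusted p 0.0024), RPP25 from 18.7 ± 1.3 to 28.4 ± 4.1 CPM (0.61 ± 0.13) and POP5 from 13.1 ± 1.1 to 19.3 ± 5.7 CPM (0.55 ± 0.19, adjusted p 0.0482). Without depleted 3 the counts were again 5 and 0. There were 3 higher without depleted 2 and 2 without any 1 of the controls. With library totals alone or on log2(FPKM + 1), 1 was called. Among all genes the number higher was 2827 in the reported fit, 1987 without depleted 2 and 1383 to 1519 without a control. It was 1283 with library totals alone and 1131 on log2(FPKM + 1). Of 14 tested genes of nuclear RNA surveillance, which feeds transcripts to the exosome, 1 rose and 3 fell, with a median of −0.112. PABPN1, the nuclear poly(A)-binding protein, was higher (0.64 ± 0.18), and RBM7 (−0.63 ± 0.17), the helicase gene SKIV2L2 (−0.41 ± 0.13) and the cap-binding NCBP1 (−0.37 ± 0.13), named after its value was seen, were lower. Without depleted 3, 1 gene was higher and 1 lower, as RBM7 (−0.50, edgeR adjusted p 0.0527) and SKIV2L2 (−0.31, adjusted p 0.0631) lost their calls. None was called either way without depleted 2, control 1 or control 2, 1 was lower without control 3, and 3 were higher and 4 lower without depleted 1. Of all genes, 35.8% were called in the reported fit and 25% without depleted 2. That share was 18.1% to 19.7% without a control and 48.8% without depleted 1. With the length and GC trend removed, none was lower.

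Of 19 tested coding genes within 100 kb of a member, 7 rose and 1 fell (17.8% and 18% of all tested genes), with a median of 0.143. FRMD8 (−0.19 ± 0.14 SE, edgeR adjusted p 0.303), the nearest to NEAT1, did not pass. Farther along this stretch SSSCA1 (0.96), SLC25A45 (0.68) and FAM89B (0.61) rose, as did the noncoding CMB9-22P13.1 between NEAT1 and MALAT1 (0.72 ± 0.18, adjusted p 0.0114). LTBP3 (−0.05), EHBP1L1 (0.08), MAP3K11 (−0.03), DPF2 (−0.27) and TIGD3 (−0.13) did not pass. SLC25A45 lost its call without depleted 3 (0.53, adjusted p 0.0768) and with library totals alone (0.43, adjusted p 0.124), and FAM89B with library totals alone (0.39, adjusted p 0.152). Both also lost it on the FPKM scales and without control 1. SLC25A45 lost it without control 3 or depleted 2 too, and FAM89B without control 2 and with the length and GC trend removed. Near TUG1, OSBP2 rose (0.99 ± 0.16), against the direction of TUG1. Near OIP5-AS1, CHP1 (0.49), NDUFAF1 (0.45) and RTF1 (0.87), a subunit of an elongation factor complex, rose. CHP1 and NDUFAF1 lost their calls with library totals alone (0.26 and 0.22), on the FPKM scales and without control 1 or 2. NDUFAF1 also lost it without control 3 and with the length and GC trend removed. RTF1, at 0.55 without depleted 3, lost its call without any 1 of the controls. NUSAP1, a mitotic spindle protein, fell from 134 ± 6 to 82.8 ± 14.3 CPM (−0.69 ± 0.15, adjusted p 0.0062).

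Across the 20 alternative settings, each of which changed 1 choice of scaling, filter, tool or libraries or a named pair of choices, MALAT1 and PVT1 were the members called every time. The values of TUG1 stayed below 0 throughout, from −0.83 to −0.28. Those of NEAT1 ran from −0.14 to 0.41 and those of OIP5-AS1 from −0.47 to 0.11, on both sides of 0.

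**Figure D5:**
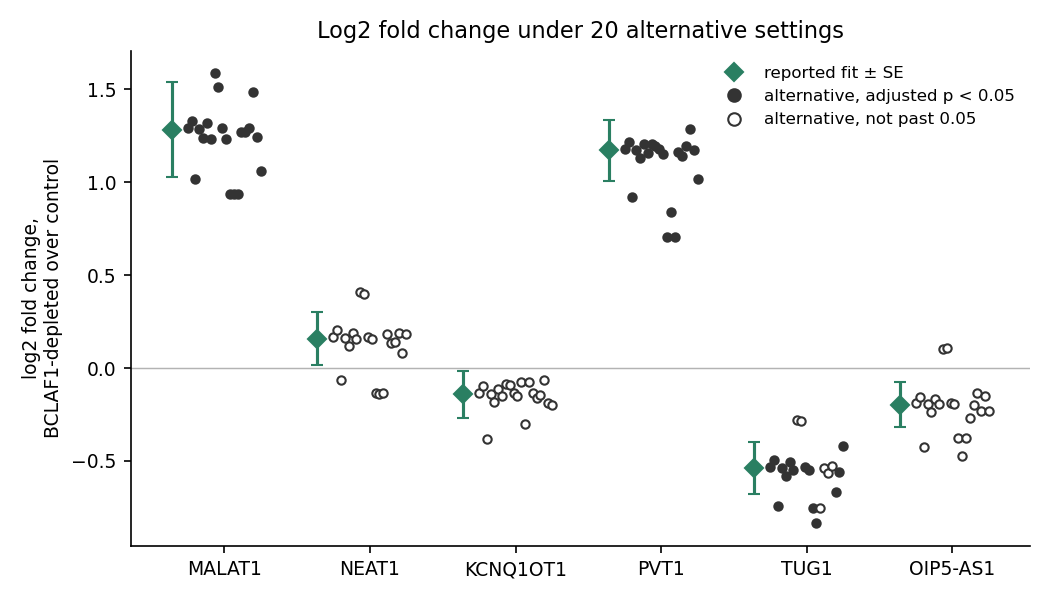
Log2 fold change of each RNA in the reported fit (green diamond with its SE) and under 20 alternative settings (circles, filled where the adjusted p was under 0.05). MALAT1 and PVT1 are filled throughout, TUG1 in 14 of 20, and NEAT1, KCNQ1OT1 and OIP5-AS1 in none.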

How the data were processed

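RNA of A549 cells was measured in 3 control and 3 BCLAF1-depleted libraries. Per the labels' protocols, oligo(dT) beads pulled out polyadenylated RNA, which was made into directional libraries by random-primed reverse transcription. The authors deposited whole-number read counts per gene for 29122 genes, not normalized, and FPKM values for 28878 genes, normalized by them for length and library size. Per the submitters' processing notes, bcl2fastq, TopHat2, edgeR and GRCh38 were used. Not given in the sources used here are their versions, the annotation release, the counting tool and its strand mode.

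Counts were fitted with edgeR 4.0.16 (R 4.3.3) by the quasi-likelihood test with TMM scaling and group as the only term. The filter was filterByExpr (count of at least 10, total of at least 15), 15907 genes passed, and Benjamini-Hochberg adjustment ran over these. Their common biological coefficient of variation was 15.3%. All CPM values include the TMM factors. In these libraries 3 counts equal 0.0683 to 0.0898 CPM before that scaling, a limit that covers counting error only, as reads carry no molecular identifiers. Ratios used exact permutation tests. Alternatives used limma 3.58.1, DESeq2 1.42.0 and mgcv 1.9.3. Scripts were tested on simulated data. Coordinates and lengths come from GENCODE 29, found for 99.2% of tested genes, which may differ from the authors' annotation. Long noncoding types are those of the table (8689 rows).

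The members and lists were chosen with earlier results of these data known. From each list, the text names up to 3 called genes with the largest change and a mean of at least 1 CPM, tested coding neighbours within 100 kb, and genes of similar course to the called members. Other names are marked as chosen after their values were seen. Results for 2 genes are not reported here.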

Additional observations from a re-analysis of the deposited data

How the results depend on the processing

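MALAT1, PVT1 and KCNQ1OT1 kept their direction and their side of the threshold under all 20 alternatives. NEAT1 reversed with library totals alone (−0.0668), on log2(FPKM + 1) with the same genes or with no filter (−0.135) and on log2(FPKM + 0.1) (−0.139). OIP5-AS1 reversed with the length and GC trend removed (0.102) and with the replicate block added to that (0.106). TUG1 lost its call with the length and GC trend removed (−0.278), with the block added (−0.287) and on log2(FPKM + 1) with no filter (−0.751). It also lost it without any 1 of the controls, and over the 6 libraries left out in turn it ran from −0.666 to −0.418. The cause of these changes was not tested. MORC2 reversed with library totals alone (−0.0807), on log2(FPKM + 1) (−0.136) and on log2(FPKM + 0.1) (−0.152). MYC reversed under them (−0.0817, −0.168 and −0.172), with the length and GC trend removed (−0.0297) and with the block added (−0.0396).

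The number of genes called higher was 1283 with library totals alone, 1131 on log2(FPKM + 1), 1126 on log2(FPKM + 0.1) and 573 with no filter. The number called lower was 4453 and 4381 on the first 2 FPKM scales. Left-out libraries gave 1383 to 3741 higher and 1549 to 4195 lower; the lowest counts came without a control and the highest without depleted 1.

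List medians moved as follows, while the median of all genes moved from 0.0196 to −0.206, −0.142 and −0.253 with library totals alone and on the FPKM scales with 1 and 0.1 added. With library totals alone, they were −0.155 (speckle proteins), 0.115 (3′ end processing), −0.330 (surveillance), −0.331 (KCNQ1 domain), −0.164 (MYC network), −0.550 (miR-7 and HuR), −0.460 (Polycomb and G9a), 0.402 (other long noncoding RNAs) and 0.0312 (noncoding types). On log2(FPKM + 1), filtered or not, they were −0.219 (speckle), −0.357 (paraspeckle), 0.0262 (3′ end processing), −0.287 (surveillance), −0.175 (MYC), −0.487 (Polycomb), 0.132 (other long noncoding RNAs) and −0.00935 (noncoding types). On log2(FPKM + 0.1) they were −0.221 (speckle), −0.362 (paraspeckle), 0.0334 (3′ end processing), −0.395 (surveillance), −0.395 (KCNQ1 domain), −0.207 (MYC), −0.619 (miR-7 and HuR), −0.537 (Polycomb), 0.318 (other long noncoding RNAs) and −0.0355 (noncoding types). With the length and GC trend removed, without and with the block, they were 0.147 and 0.141 (surveillance), −0.136 and −0.138 (miR-7 and HuR), −0.0690 and −0.0746 (Polycomb) and 0.0706 and 0.0618 (noncoding types). Over left-out libraries, the surveillance median ran from −0.111 to −0.00968 and that of other long noncoding RNAs from 0.357 to 0.702. With at least 5 CPM required in 3 libraries, the KCNQ1 domain was at 0.345.

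Control and depleted libraries share replicate numbers in the labels, and their deviations correlated by 0.036, 0.047 and 0.119 for the same numbers. These correlations are low, but each library correlated best with its own number. Whether the libraries share more than a number was not tested. A replicate block gave 2886 higher and 3121 lower genes and changed no call of the 6 RNAs.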

Other observations

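Called genes were also counted by gene type, for types of the 6 RNAs and for others. Over all tested genes 17.8% were higher and 18% lower. Of 164 tested sense-intronic transcripts, which lie within introns of other genes on the same strand, 55 were higher and 2 lower, with a median log2 fold change of 0.632. Of 165 tested genes of the type TEC, transcribed regions that still need experimental support, 41 were higher and 6 lower. Antisense genes, the type of KCNQ1OT1 and TUG1 in the table, gave 177 higher and 48 lower of 958 tested. LincRNAs, the type of MALAT1, NEAT1 and PVT1, gave 180 higher and 65 lower of 853. Of 57 tested small nucleolar RNAs, 6 were higher and 1 lower.

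RNAs made by RNA polymerase III without a poly(A) tail were present at low levels in these oligo(dT)-selected libraries. The following were singled out after their values were seen. The RNA subunit of RNase P, RPPH1, was at 1.72 ± 0.23 CPM in controls and 4.32 ± 1.58 CPM in depleted libraries (SD, n = 3 each), a log2 fold change of 1.33 ± 0.27 (SE, edgeR adjusted p 0.0052). RN7SK, which holds back the elongation factor P-TEFb, was at 2.60 ± 0.39 and 5.99 ± 0.92 CPM (1.20 ± 0.19, edgeR adjusted p 0.0016). RMRP, the RNA of RNase MRP, was at 0.430 ± 0.242 and 1.32 ± 0.30 CPM (1.62 ± 0.39, edgeR adjusted p 0.0113). RN7SL1, the RNA of the signal recognition particle, did not pass (0.67 ± 0.27, edgeR adjusted p 0.0775). Some of these genes, among them RN7SK and RN7SL1, have similar copies in the genome, among which reads may be shared.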
